A study of Bos taurus with 22 samples.

Results

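SLC2A1, PFKL and LDHB are genes of glucose uptake, of a step of glycolysis and of lactate dehydrogenase. Their transcripts were measured by RNA sequencing in circulating white blood cells of 22 heifers. They are 3 of the 27607 genes in the count table, and all 3 were among the 13535 genes kept for the tests. Their symbols were matched to Ensembl identifiers through the annotation columns of the study's own results table, of which 1227 genes with a symbol were at hand. Those rows are ordered by the test of fertility group on these same heifers, so the members were selected on small p-values of that contrast, in which they ranked 171 (SLC2A1), 684 (PFKL) and 1150 (LDHB) of 13535. Differences between Fertile and Sub-Fertile heifers are therefore described here without a test.

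Fertile heifers calved after their first artificial insemination. Angus Sub-Fertile heifers did not conceive after 2 services and exposure to a bull, and Holstein Sub-Fertile heifers needed at least 4 inseminations. There were 5 Angus Fertile, 7 Angus Sub-Fertile, 5 Holstein Fertile and 5 Holstein Sub-Fertile heifers, all purebred, sampled at the first insemination after hormonal synchronization of estrus with progesterone inserts, and each gave 1 library. Angus heifers averaged 14 months of age and followed the 7-Day Co-Synch + CIDR protocol, whereas Holstein heifers averaged 12 months and followed the 5-Day CIDR-Synch protocol. Breed, age, protocol, herd management and the definition of Sub-Fertile thus cannot be told apart.

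Among white blood cells, neutrophils depend on glycolysis more than lymphocytes do. SLC2A1 encodes GLUT1, a facilitative glucose transporter of the plasma membrane. PFKL encodes the liver-type subunit of phosphofructokinase, which catalyzes the committed step of glycolysis. LDHB encodes the H subunit of lactate dehydrogenase, which interconverts pyruvate and lactate and prevails in cells that oxidize lactate.

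Total counts per heifer ranged from 12182400 to 49228035, with medians of 43397200 in Angus Fertile, 28354500 in Angus Sub-Fertile, 17180100 in Holstein Fertile and 17198900 in Holstein Sub-Fertile heifers, so that depth differed with breed. They allowed 169 to 1199 counts of SLC2A1, 830 to 3940 of PFKL and 4341 to 15363 of LDHB in a heifer, so that the counting error at the lowest count was 0.11, 0.050 and 0.022 on the log2 scale. In 8 pairs of heifers, called close pairs here, the libraries were closer to each other than any other pairing, with a biological coefficient of variation of 0.0378 to 0.0828 against 0.0980 or more (median 0.174) in the other 223 pairings. Heifer 1 was paired with 11, heifer 5 with 6, heifer 7 with 16, heifer 8 with 12, heifer 10 with 18, heifer 13 with 22, heifer 14 with 20 and heifer 15 with 19. No close pair lay within 1 group: 4 joined an Angus with a Holstein heifer and 6 joined heifers of opposite fertility groups. The sources used here name no link between the heifers of a pair. Shared RNA or exchanged labels were not tested, and exchanged labels would change the group means and differences given here. Each heifer was kept as 1 sample, and the breed and fertility differences are also given with close pairs as blocks. The interaction and the permutation tests were run without blocks.

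SLC2A1 (ENSBTAG00000009617, chromosome 3, 103309039 to 103337423 of ARS-UCD1.2) was the scarcest of the 3 transcripts. Holstein Sub-Fertile heifers 1 to 5 had 16.2, 13.03, 14.1, 15.5 and 17.2 CPM (a gene's count scaled to a common library total), and Holstein Fertile heifers 6 to 10 had 15.1, 19.3, 17.7, 19.96 and 23.2 CPM. Angus Sub-Fertile heifers ranged from 14.5 to 22.6 CPM (median 18.04), and Angus Fertile heifers 18 to 22 had 20.6, 19.8, 24.4, 13.9 and 22.1 CPM. The order of the means was Angus Fertile (20.1 ± 3.91 CPM, SD, n = 5), Holstein Fertile (19.04 ± 2.99 CPM, SD, n = 5), Angus Sub-Fertile (18.5 ± 2.56 CPM, SD, n = 7) and Holstein Sub-Fertile (15.2 ± 1.66 CPM, SD, n = 5). All 4 groups overlapped, and the means of the 3 higher groups lay within 1 SD of each other. The 5 Holstein Sub-Fertile heifers were all below the median of the 22 heifers, and 4 of 5 Holstein Fertile heifers exceeded every one of them. Angus Fertile heifer 21, the least deeply sequenced library, stood below all 7 Angus Sub-Fertile heifers. The contrast of fertility groups chose SLC2A1, so nothing is read from these positions. The share of all genes with such positions was not computed.

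PFKL (ENSBTAG00000010658, chromosome 1, 144308711 to 144335975) was of intermediate abundance, and its heifers lay within a narrow range. Holstein Sub-Fertile heifers 1 to 5 had 75.7, 62.8, 63.5, 72.3 and 61.1 CPM, and Holstein Fertile heifers 6 to 10 had 68.7, 67.4, 66.7, 78.0 and 80.3 CPM. Angus Sub-Fertile heifers ranged from 63.1 to 77.4 CPM (median 71.7), and Angus Fertile heifers 18 to 22 had 75.7, 75.9, 80.0, 70.3 and 74.6 CPM. The order of the group means was Angus Fertile (75.3 ± 3.46 CPM, SD, n = 5), Holstein Fertile (72.2 ± 6.44 CPM, SD, n = 5), Angus Sub-Fertile (71.4 ± 5.20 CPM, SD, n = 7) and Holstein Sub-Fertile (67.1 ± 6.51 CPM, SD, n = 5). No neighbours in this order differed by more than the larger of their SD, and within each breed the fertility groups overlapped.

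LDHB (ENSBTAG00000019603, chromosome 5, 88544523 to 88562783) was the most abundant member. Holstein Sub-Fertile heifers 1 to 5 had 354, 339, 324, 347 and 331 CPM, and Holstein Fertile heifers 6 to 10 had 338, 350, 335, 410 and 379 CPM. Angus Sub-Fertile heifers ranged from 328 to 347 CPM (median 337), and Angus Fertile heifers 18 to 22 had 421, 323, 312, 389 and 329 CPM. Heifers 9, 10, 18 and 21, all Fertile, were above all 12 Sub-Fertile heifers, and Angus Fertile heifers 19 and 20 were below all of them. Of these 4 heifers, 10 and 18 are a close pair, and the coefficients of variation of the other pairings among them were 0.187 to 0.223. The Fertile heifers were spread more widely (359 ± 38.5 CPM, SD, n = 10) than the Sub-Fertile heifers (339 ± 8.79 CPM, SD, n = 12), with a coefficient of variation of 10.7% against 2.60%. Medians were close, at 344 CPM in Fertile and 338 CPM in Sub-Fertile heifers. LDHB was chosen by the contrast of these groups, so nothing is read from the separation or the spread. The share of all genes with either was not computed.

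**Figure D1:**
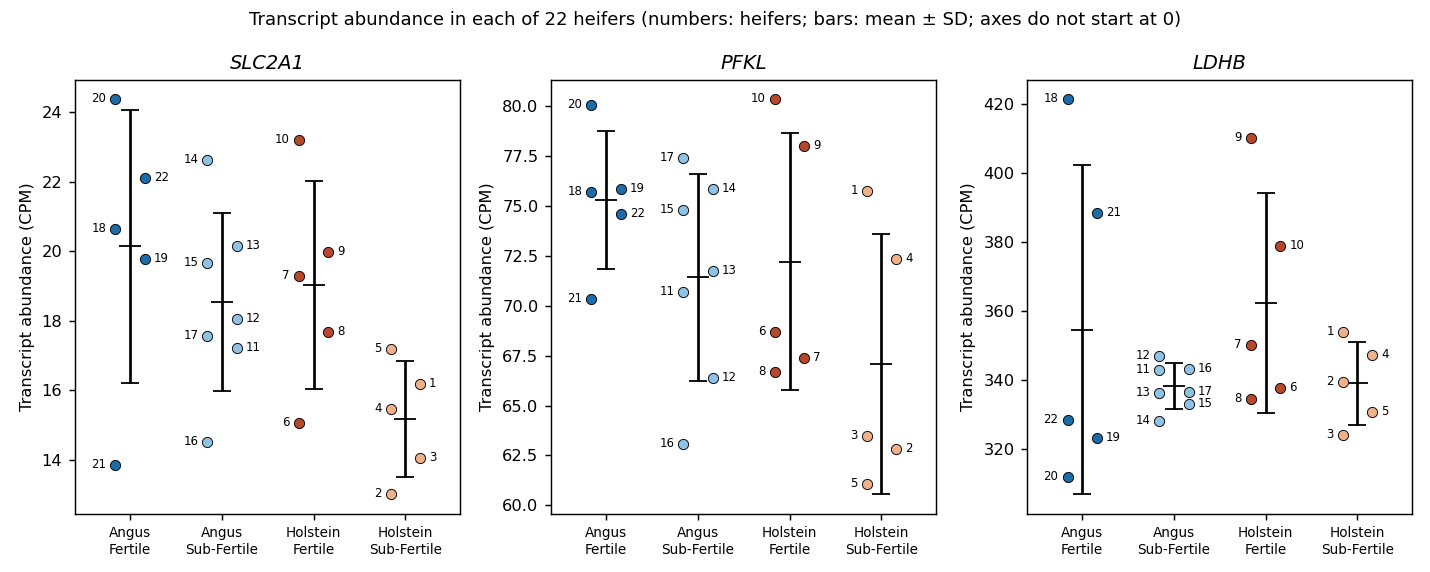
Transcript abundance (CPM, y axes, not starting at 0) of SLC2A1, PFKL and LDHB by group of breed and fertility (x axes). Points are heifers with their numbers and bars are the mean ± SD of 5 or 7 heifers. All groups overlap, and LDHB in 4 Fertile heifers (9, 10, 18 and 21, at 379 to 421 CPM) lies above the rest. The contrast of fertility groups chose these genes, so nothing is read from that.

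Per length of the annotated transcript (2713 bases for SLC2A1, 2870 for PFKL and 1734 for LDHB), the order of levels was the same in all 22 heifers. Mean levels were 6.73 ± 1.18 CPM per kb (SD, n = 22) for SLC2A1, 24.9 ± 2.04 for PFKL and 201 ± 16.1 for LDHB. Within a heifer, LDHB was 6.45 to 9.22 times PFKL (median 8.09), and PFKL was 3.11 to 4.79 times SLC2A1 (median 3.61), both per kb. One annotated transcript per gene was used as its length, so these ratios shift if another isoform prevails in white blood cells.

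The spread between heifers of a group, as the SD of log2(CPM + 1), was 0.22 for SLC2A1, 0.11 for PFKL and 0.11 for LDHB. Among genes within 2-fold of its mean CPM, SLC2A1 varied more than 57.5% of 3851 genes, PFKL more than 17.5% of 4261 genes and LDHB more than 27.2% of 1135 genes. SLC2A1 was thus near the middle of genes of its abundance, while PFKL was steadier than most.

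Between the breeds, no member passed the test, and SLC2A1 came nearest. Holstein heifers had 17.1 ± 3.05 CPM (SD, n = 10) of SLC2A1 and Angus heifers 19.2 ± 3.14 CPM (SD, n = 12), and the fitted breed difference (Holstein minus Angus, log2) was −0.20 (standard error 0.096, 95% interval −0.39 to 0.0017). That of PFKL was −0.077 (standard error 0.050, 95% interval −0.18 to 0.025), with 69.6 ± 6.68 CPM (SD, n = 10) in Holstein and 73.0 ± 4.81 CPM (SD, n = 12) in Angus heifers. LDHB stood at 351 ± 25.9 CPM (SD, n = 10) in Holstein and 345 ± 30.4 CPM (SD, n = 12) in Angus heifers, with a breed difference of 0.016 (standard error 0.050, 95% interval −0.086 to 0.12). In white blood cells as a whole, fewer cells that express a gene and less of its RNA in each cell cannot be told apart.

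By the quasi-likelihood test of edgeR over all 13535 genes, the adjusted p (Benjamini-Hochberg) was 0.470 for SLC2A1, 0.561 for PFKL and 0.917 for LDHB. No gene of the 13535 passed 0.05 (0%) in this test, while the Wald test of DESeq2 called 10 genes, and 0 of the 3 members had an adjusted p under 0.05 in either. At an unadjusted p under 0.05, edgeR gave 10.6% of all genes (6.08% lower and 4.56% higher in Holstein heifers) and 0 of the 3 members, with SLC2A1 at an unadjusted edgeR p of 0.0518, and the unadjusted DESeq2 count was 1751 genes. SLC2A1 was under this line in 5 of the 22 fits that left out 1 heifer (without heifer 5, 9, 10, 16 or 21). With log2 total counts as a covariate, the breed difference was −0.14 for SLC2A1, −0.050 for PFKL and −0.0087 for LDHB. The direction turned for all 3 members when close pairs were blocks, at 0.085 (standard error 0.089) for SLC2A1, 0.046 (standard error 0.047) for PFKL and −0.026 (standard error 0.045) for LDHB, where breed is compared only within the 4 pairs of an Angus and a Holstein heifer.

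When breed labels were permuted within the fertility groups, over all 199584 regroupings, the two-sided exact p was 0.0961 for SLC2A1, 0.109 for PFKL and 0.685 for LDHB (adjusted p = 0.163, 0.163 and 0.685, Benjamini-Hochberg, 3 genes). The permuted difference in log2(CPM + 1) was −0.17 for SLC2A1, −0.077 for PFKL and 0.020 for LDHB. Whether SLC2A1 passed the permutation test turned on Angus Fertile heifer 21. Without it the difference was −0.23, with an exact permutation p of 0.00888 (adjusted p = 0.0266), and the edgeR log2 fold change was −0.25, with an adjusted p of 0.387 over all genes. Without any other single heifer the adjusted p of SLC2A1 in the permutation test stayed above 0.05.

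In the 4 close pairs of both breeds, SLC2A1 was 16.2 CPM in Holstein heifer 1 and 17.2 CPM in Angus heifer 11, and 17.7 CPM in Holstein heifer 8 and 18.04 CPM in Angus heifer 12. It was 19.3 CPM in Holstein heifer 7 and 14.5 CPM in Angus heifer 16, and 23.2 CPM in Holstein heifer 10 and 20.6 CPM in Angus heifer 18. The Holstein heifer was thus the higher one in 2 of 4 pairs for SLC2A1, in 2 of 4 for LDHB and in 4 of 4 for PFKL, although PFKL was lower in Holstein heifers on average. In 2 of these pairs, heifers 7 with 16 and 8 with 12, the Holstein heifer was Fertile and the Angus heifer Sub-Fertile, so breed and fertility group cannot be told apart there.

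**Figure D2:**
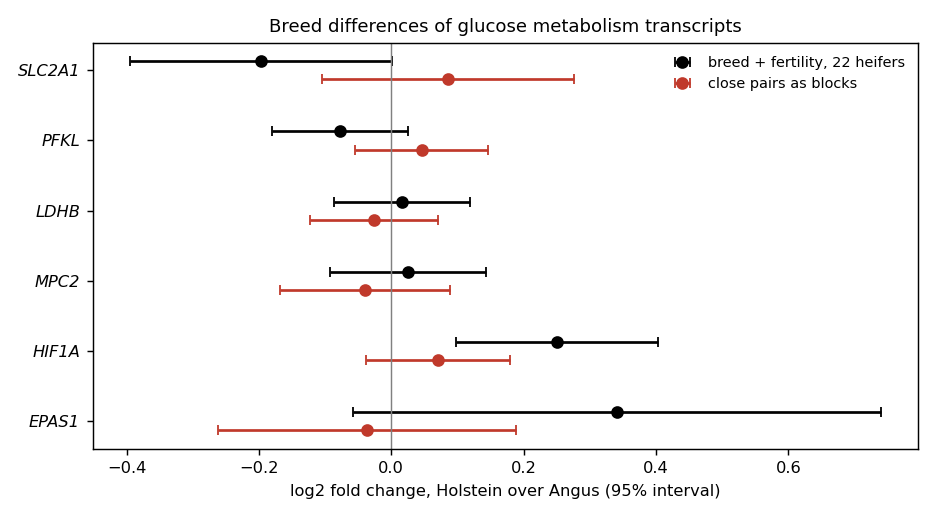
Breed difference (Holstein minus Angus, log2 fold change, x axis) for SLC2A1, PFKL, LDHB and 3 further genes of glucose metabolism (y axis), with 95% intervals. Black points are the edgeR fit with breed and fertility group over 22 heifers, and red points are the fit with the 8 close pairs as blocks. Of the black intervals that of HIF1A (0.098 to 0.40) alone excludes 0, and no red interval does.

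Whether the fertility difference depended on breed was asked with the interaction of both terms. The fertility difference (Fertile minus Sub-Fertile, log2) was 0.33 (standard error 0.14) in Holstein and 0.12 (standard error 0.13) in Angus heifers for SLC2A1, 0.11 (standard error 0.074) and 0.076 (standard error 0.068) for PFKL, and 0.096 (standard error 0.074) and 0.068 (standard error 0.069) for LDHB. The differences of these were 0.21 for SLC2A1 (95% interval −0.18 to 0.60), 0.031 for PFKL (95% interval −0.18 to 0.24) and 0.028 for LDHB (95% interval −0.18 to 0.24). None passed the edgeR quasi-likelihood test (Benjamini-Hochberg adjusted p = 0.675, 0.924 and 0.935). Over all genes 0% passed after adjustment, by edgeR or by DESeq2, and 10.4% had an unadjusted edgeR p under 0.05 (1657 genes by DESeq2), against 0 of the 3 members by edgeR. For SLC2A1 the interaction was 0.11 without Angus Fertile heifer 21 and 0.29 without Angus Fertile heifer 20. For PFKL it was −0.010 without Holstein Fertile heifer 10, and for LDHB it was −0.021 without Holstein Fertile heifer 9, −0.0041 without Angus Fertile heifer 19 and −0.015 without Angus Fertile heifer 20. With log2 total counts as a covariate it was 0.27 for SLC2A1, 0.059 for PFKL and 0.00068 for LDHB.

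Over both breeds, the fitted fertility difference was 0.22 (standard error 0.095) for SLC2A1, 0.091 (standard error 0.050) for PFKL and 0.081 (standard error 0.050) for LDHB. These are the values of the contrast that chose the genes, and nothing is read from them. The median over all genes was −0.0020, and 49.01% of genes were higher in Fertile heifers. With close pairs as blocks, the values were 0.048 for SLC2A1, 0.055 for PFKL and −0.016 for LDHB. The fertility group differed within 6 close pairs, 2 of which also differed in breed. In these 6, the Fertile heifer was the higher one in 4 pairs for SLC2A1, in 6 for PFKL and in 2 for LDHB. These counts come from the same heifers and contrast that chose the genes, so nothing is read from them either. The share of all genes with such counts was not computed. PFKL was 68.7 and 61.1 CPM in heifers 6 and 5, 67.4 and 63.1 CPM in heifers 7 and 16, and 66.7 and 66.4 CPM in heifers 8 and 12. It was 74.6 and 71.7 CPM in heifers 22 and 13, 80.0 and 75.9 CPM in heifers 20 and 14, and 75.9 and 74.8 CPM in heifers 19 and 15, with the Fertile heifer first.

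Marker genes of the cell types in the samples were at hand for 9 of 99 symbols, and they had come through the same ranking by fertility as the members. Of the neutrophil list, 4 of 17 had a symbol here: the receptor CSF3R, the protease MMP9, the transglutaminase TGM3 and the sulfhydryl oxidase QSOX1. Their summed level was 249 to 505 CPM in Holstein Fertile and 397 to 763 CPM in Holstein Sub-Fertile heifers, and 392.1 to 514 CPM in Angus Fertile and 355 to 709 CPM in Angus Sub-Fertile heifers. The fitted log2 fertility difference was −0.43 (standard error 0.18) for CSF3R, −0.98 (standard error 0.45) for TGM3 and −0.74 (standard error 0.37) for MMP9, and 0.18 (standard error 0.10) for QSOX1. BANK1, an adaptor of B cells and 1 of 11 markers of that list, was at 238 to 445 CPM in Holstein Fertile, 342 to 512 CPM in Holstein Sub-Fertile, 245 to 380 CPM in Angus Fertile and 265 to 378 CPM in Angus Sub-Fertile heifers. Its fitted breed difference (Holstein minus Angus, log2) was 0.25 (standard error 0.099, edgeR adjusted p = 0.437), the largest relative to its standard error among the 9 markers. The platelet genes ITGA2B and GP9 (2 of 10) summed to 33.1 to 68.8 CPM in Angus Fertile, 33.8 to 50.6 CPM in Angus Sub-Fertile, 37.5 to 73.1 CPM in Holstein Fertile and 33.8 to 47.2 CPM in Holstein Sub-Fertile heifers. The eosinophil and basophil receptors CCR3 and FCER1A (2 of 11) summed to 31.3 to 73.4 CPM. None of the 9 markers was at 0 in any heifer, and no marker of T cells, monocytes, natural killer cells or red blood cells had a symbol here. MMP9 was at 0.37 to 4.84 CPM and GP9 at 0.62 to 5.91 CPM, so both were scarce. The correlations with marker lists weigh each gene of a list equally. The part of cell makeup in the values of SLC2A1, PFKL and LDHB was not tested.

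Across the 22 heifers, with the means of the 4 groups taken out, SLC2A1 and PFKL varied together more than the other member pairs did. Pearson's r was 0.599 (permutation p = 0.00320, adjusted p = 0.0576) and Spearman's rho was 0.535 (permutation p = 0.0119, adjusted p = 0.185), with adjustment over 18 relations, so that the relation did not pass. Without the 2 heifers farthest from the median of SLC2A1, r was 0.502, and with each close pair averaged to 1 point, over 14 points, it was 0.641. So averaged, r was −0.218 for SLC2A1 with LDHB and 0.263 for PFKL with LDHB. The relations of LDHB were weaker: r was 0.170 with PFKL (permutation p = 0.453, adjusted p = 0.889, rho 0.203 with permutation p = 0.364 and adjusted p = 0.751) and −0.151 with SLC2A1 (permutation p = 0.507, adjusted p = 0.889, rho −0.0819 with permutation p = 0.717 and adjusted p = 0.992). Without the 2 heifers farthest from the median of the first-named gene on the x axis, r was 0.163 for PFKL with LDHB and 0.0568 for SLC2A1 with LDHB. Without Angus Fertile heifer 21, low in SLC2A1 and high in LDHB, the correlation of these 2 genes was 0.0638.

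**Figure D3:**
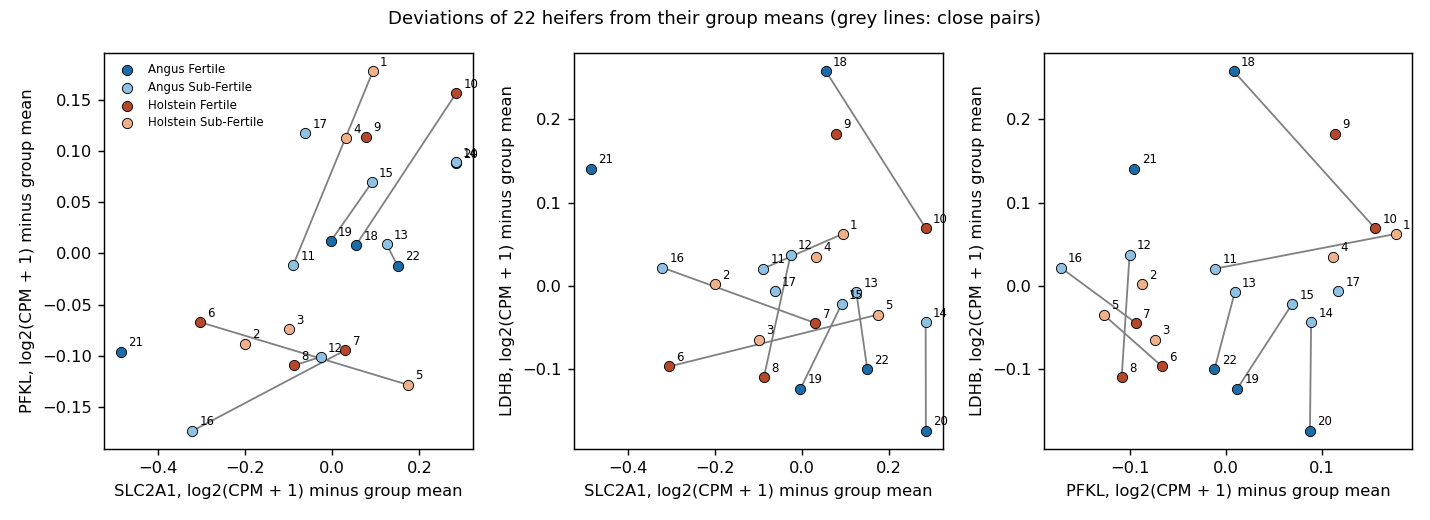
Deviation of each heifer from its group mean in log2(CPM + 1) for SLC2A1 against PFKL, SLC2A1 against LDHB and PFKL against LDHB. Points are heifers with their numbers, colours are groups and grey lines join close pairs. Pearson's r is 0.599 for SLC2A1 and PFKL, which did not pass the permutation test after adjustment (adjusted p = 0.0576). It is −0.151 for SLC2A1 with LDHB and 0.170 for PFKL with LDHB.

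Of the 12 relations with marker lists, none passed after adjustment over the 18 relations. Each list was taken as the mean of its genes, so that genes of opposite direction can cancel. With SLC2A1, r was 0.441 for CCR3 and −0.585 for FCER1A, against −0.0243 for the 2 together. Over all 22 heifers the largest relation with a list was that of LDHB with the 2 platelet genes, at r = 0.499 (permutation p = 0.0190, adjusted p = 0.171) and rho = 0.455 (permutation p = 0.0360, adjusted p = 0.185). Its r was 0.383 without the 2 heifers farthest from the median of the platelet genes. With the 2 farthest heifers left out in the same way, r of SLC2A1 with the platelet genes was 0.457, against 0.00968 over all heifers. With close pairs averaged it was −0.325, so its sign depended on the handling. For LDHB with the neutrophil genes, r was −0.421 without the 2 farthest heifers, −0.234 over all and −0.307 with close pairs averaged. Over all heifers the neutrophil genes went different ways with LDHB. Singly, r was 0.616 for QSOX1, −0.394 for MMP9, −0.219 for TGM3 and −0.200 for CSF3R. LDHB had r = −0.406 with BANK1 (permutation p = 0.0616, adjusted p = 0.185) and rho = −0.442 (permutation p = 0.0411, adjusted p = 0.185), with r = −0.201 without the 2 farthest heifers. With log2 total counts, r was 0.443 for SLC2A1 (permutation p = 0.0378, adjusted p = 0.185), 0.408 for PFKL (permutation p = 0.0602, adjusted p = 0.185) and −0.419 for LDHB (permutation p = 0.0519, adjusted p = 0.185), and rho was 0.274 (permutation p = 0.214, adjusted p = 0.550), 0.457 (permutation p = 0.0334, adjusted p = 0.185) and −0.352 (permutation p = 0.109, adjusted p = 0.326). Without the 2 heifers farthest from the median of total counts, r with depth was 0.150, 0.266 and −0.433. None of these relations with depth passed after adjustment. The permutations take heifers as independent, which the close pairs were not. They also exchange all 22 deviations freely although group means had been taken out, which can make the correlation p-values too small.

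Among the 1226 other genes with a symbol, those most like each member over the 22 heifers were ranked by Pearson's r of log2(CPM + 1) with group means taken out, as a description. For SLC2A1 they were the splicing factor PUF60 (r = 0.850), C5H12orf4 (0.845), the mitochondrial ribosomal proteins MRPL37 (0.836) and MRPL22 (0.835), and COPS8 of the COP9 signalosome (0.828). The least alike were the membrane-bending protein FNBP1 (−0.678), SPATA21 (−0.623) and the calcium-binding protein S100A13 (−0.619). PFKL was most like AP5S1 of an adaptor complex (0.788), NDUFS7 of respiratory complex I (0.776), UQCRC1 of complex III (0.766), CYB561D2 (0.758) and RABGGTA, which takes part in attaching lipids to Rab proteins (0.748). It was least like S100A13 (−0.785), CEP70 (−0.718) and the ribosomal protein RPL12 (−0.700).

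LDHB was most like 2 genes of oxidative phosphorylation, ATP5MC3 of ATP synthase (r = 0.838) and COX6B1 of cytochrome c oxidase (0.834), followed by the cytokinesis regulator RACGAP1 (0.768), the nucleoside diphosphate kinase NME2 (0.762) and the kinetochore protein SPC24 (0.752). ATP5MC3 was at 175, 161, 160 and 157 CPM in heifers 18, 10, 21 and 9, the 4 that were highest in LDHB, and at 117 to 143 CPM in the other 18. COX6B1 was at 157, 142, 152 and 148 CPM in the same heifers, and at 112 to 140 CPM in the others. Both genes were picked by their correlation with LDHB over these same heifers, so their levels there are not a separate observation. LDHB was least like 3 genes, the histone acetyltransferase KAT7 (−0.803), the chromatin protein POGZ (−0.801) and the endocytic adaptor EPN2 (−0.801). Of the 50 named genes most like each member, SLC2A1 and PFKL shared 14, whereas LDHB shared 0 with either. This overlap rests on the same deviations as the correlations between the members, so it is not a separate observation.

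The lists of glucose metabolism held 100 symbols in 8 groups, of transporters, glycolytic enzymes, regulators of phosphofructokinase, lactate handling, pyruvate entry, the pentose phosphate pathway, glycogen and upstream regulators. Beside the 3 members, 3 of them had a symbol here: MPC2, a subunit of the mitochondrial pyruvate carrier, and the oxygen-sensitive transcription factors HIF1A and EPAS1. Between the breeds 0 of these 3 passed the edgeR quasi-likelihood test after Benjamini-Hochberg adjustment, and HIF1A was the 1 gene at an unadjusted p under 0.05, higher in Holstein heifers, against the 4.56% of all genes given above. HIF1A was at 178 to 297 CPM in Holstein (median 241) and 161 to 251 CPM in Angus heifers (median 204), so that the breeds overlapped. The breed difference of HIF1A was 0.25 (standard error 0.074), with an edgeR adjusted p of 0.437, and it was 0.071 (standard error 0.051) with close pairs as blocks. Over the 22 fits without 1 heifer it was 0.22 to 0.28.

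MPC2, which passes pyruvate into mitochondria, was at 31.5 to 44.5 CPM in Holstein and 31.1 to 41.0 CPM in Angus heifers, with a log2 fold change of 0.025 (standard error 0.057). EPAS1 was at 10.8 to 33.7 CPM in Holstein and 10.3 to 23.9 CPM in Angus heifers, with 0.34 (standard error 0.19, edgeR adjusted p = 0.515). Without 1 heifer it was 0.22 (without Holstein Sub-Fertile heifer 3) to 0.47 (without Angus Fertile heifer 22). Over the heifers, with group means taken out, MPC2 had r = 0.712 with LDHB, 0.227 with PFKL and 0.148 with SLC2A1, given as a description. HIF1A had r = 0.0775 with SLC2A1, 0.102 with PFKL and −0.245 with LDHB, and EPAS1 had −0.220, −0.312 and −0.182. SLC2A3, LDHA, PFKP and PFKM, the transporter and isoenzymes that share these steps, are not analysed here.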

How the data were processed

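RNA of white blood cells was sequenced as polyadenylated, stranded, paired-end libraries. The authors aligned reads to ARS-UCD1.2 (Ensembl annotation) with hisat2, dropped unmapped reads, duplicates and secondary alignments, and deposited raw fragment counts per gene from featureCounts. Tool versions, the strand setting and the handling of fragments shared with paralogs or pseudogenes are not given in the sources used here. Of 27607 genes, 13535 had a CPM above 1 in at least 5 heifers and held at least 99.87% of each library's counts. The study's code divides counts by TMM factors for this filter, which then cancel. edgeR 4.0.16 (R 4.3.3) fitted breed and fertility group with robust estimation and total counts as library sizes, and DESeq2 1.42.0 was an alternative. The standard error was the log2 fold change over the square root of F. Permutation tests (numpy 2.4.6, scipy 1.17.1, Python 3.11.15) enumerated all regroupings for single genes and drew 100000 for correlations. The fit was tested on simulated data in which heifers were independent, so that test does not cover libraries with close pairs.

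The members and gene lists were chosen with earlier results of these data known. Named genes are the members, the list members with a symbol (up to 3 by breed and 2 by fertility p per pathway list, and up to 3 markers per cell list by mean CPM), and the 5 most and 3 least like each member. MMP9, one neutrophil marker beyond this rule, was named after its values were seen. Symbols and coordinates came from the annotation columns of 1401 rows of the study's results table, ordered by fertility p. The comparisons those rows also hold were not used. Close pairs are heifers nearest to each other with a biological coefficient of variation (genes above a mean of 20 CPM) under 0.5 of the median. If heifers of a pair share RNA or origin, the p-values, which take heifers as independent, can be too small or too large. Intervals and counting errors cover the spread named beside them only.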

Additional observations from a re-analysis of the deposited data

How the results depend on the processing

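Nothing passed adjustment for SLC2A1, PFKL or LDHB by edgeR or DESeq2 under any alternative, in the breed or the interaction test. With close pairs as blocks the breed difference reversed for SLC2A1 (0.085), PFKL (0.046), LDHB (−0.026), MPC2 (−0.040) and EPAS1 (−0.037), and 233 genes in place of 1440 had an unadjusted breed p under 0.05; that fit compares breeds within 4 pairs only. With log2 total counts as a covariate the breed difference was −0.14 for SLC2A1, −0.050 for PFKL and −0.0087 for LDHB. DESeq2 called 10 genes for breed, against 0 by edgeR.

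Leaving out 1 heifer at a time gave a breed difference of −0.0054 to 0.046 for LDHB and −0.0052 to 0.044 for MPC2, an interaction of −0.010 to 0.078 for PFKL and −0.021 to 0.097 for LDHB, and 1019 (without Holstein Fertile heifer 8) to 2188 genes (without Holstein Sub-Fertile heifer 1) at an unadjusted breed p under 0.05. The permuted breed difference was −0.23 to −0.13 for SLC2A1 and −0.0031 to 0.052 for LDHB, and the correlation of SLC2A1 and LDHB was −0.262 to 0.0638. The cause of these changes was not tested. Ratios between isoenzymes could not be computed without symbols of the partner genes, and counts of pathway genes by fertility were not made because symbols were at hand only for genes ranked high in that contrast. Alternatives for MPC2, HIF1A and EPAS1, and a filter with TMM factors in the library sizes, were chosen after seeing the data.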

Other observations

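The named genes that varied like SLC2A1, PFKL and LDHB had shorter annotated transcripts than those that varied in the opposite way. For SLC2A1 the median length was 1790 bases in the 50 most alike and 3630 bases in the 50 least alike of 1226 named genes, against 2288 bases in all of them. It was 1806 and 3046 bases for PFKL, and 1818 and 3470 bases for LDHB. The most alike genes were also scarcer than the least alike for each member, with medians of 28.5 and 62.1 CPM for SLC2A1, 38.6 and 66.9 CPM for PFKL, and 23.3 and 60.3 CPM for LDHB. Over all named genes the medians were 38.8, 38.6 and 38.6 CPM, so the genes most like PFKL were not scarcer than named genes in general. These values describe genes over the same 22 libraries, and whether transcript length, RNA quality or library preparation had a part in them was not tested.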
